A study of Bos taurus with 12 samples.

Results

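AQP3, AQP5 and ATP1B1 are 3 genes for the movement of water and sodium across epithelia, and they were followed over 12 microarrays of bovine endometrium. They are 3 of the 6749 genes that could be named on the array, and each is read by 1 probe of 15208. The genes were picked because their signals on these arrays were higher in summer than in autumn on the CL side. Their CL-side season change is therefore a description here, with no test, and so is every other difference that uses CL-side arrays. Only the season change of the opposite horn, whose arrays are not in the contrast used for the choice, was tested for them. Earlier results of these data were known when the genes were chosen.

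Endometrium, the inner lining of the uterus, was biopsied from Japanese-Black cows, all on day 15 of the estrous cycle. The groups were the horn next to the corpus luteum (CL), the ovarian body that makes progesterone, sampled in summer and autumn, and the horn opposite to it (non-CL side), sampled in the same seasons. Each of the 4 groups had 3 arrays, and the labels name no treatment. Sampling ran over consecutive years that the labels do not tie to samples, and they do not say that the replicates of a group were separate animals, so p-values measure only the spread between these samples. A biopsy is a bulk sample, in which fewer cells of a type and less RNA per cell cannot be told apart.

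Aquaporins are membrane pores that let water follow an osmotic gradient. AQP3 also passes glycerol and is known from the basolateral membrane of many epithelia, and AQP5 is known from the apical membrane of secretory cells such as those of salivary and sweat glands. ATP1B1 is the beta-1 subunit of the sodium pump, which moves sodium out of the cell and potassium in at the cost of ATP. The beta subunit carries the catalytic alpha subunit to the plasma membrane, and the gradient that the pump builds drives most other ion transport of an epithelium. In the uterus these proteins are studied for the volume and composition of the fluid around the early embryo.

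The probes are 60-base oligonucleotides whose sequences stand in the scanner files, and no other probe of the array shared a run of 20 bases with any of them. The last 30 bases of each are shown because every value here is the brightness of these molecules. Capitals mark the hexamer AATAAA, the usual polyadenylation signal of mRNA.

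AQP3, probe A_73_112174: ctgccctcctttaatcctccactcaacaca
AQP5, probe A_73_115344: aggtgagggcttcccAATAAAccactgaca
ATP1B1, probe A_73_121164: atgtaacggcccatcgatgagcatttttaa

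The AQP5 probe holds the hexamer from base 46 of 60, which leaves 9 bases after it. The probes of AQP3 and ATP1B1 do not hold AATAAA, or TTTATT, its reverse complement. Over all probes the hexamer was present in 11.3% as written, in 4.14% as its reverse complement and in 14.9% on either strand. A match describes these letters only. G and C made up 53.3% of the AQP3 probe, 53.3% of the AQP5 probe and 40% of the ATP1B1 probe, and the median probe had 43.3%.

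All 3 probes were well above background on 12 of 12 arrays, and none was saturated or flagged as an outlier on any. Levels are log2 values of the signal relative to the 75th percentile of the same array, so 0 is the brightness of that percentile, and 1 unit is a doubling. This percentile was 2007 on CL-side summer replicate 2 and ranged from 3516 to 4418 over the other arrays. Over all probes, the median correlation of replicate 2 with the other arrays was 0.929, whereas the lowest between any of the other 11 was 0.972. The endometrial transcription factor gene HOXA10 had a level of −0.13 on it, against 2.81 to 3.55 on the other arrays, and FOXL2 had −2.38 against 0.36 to 1.44. Both belong to a list of 7 endometrial genes that were not all low there. PGR was at −1.71 against at least −1.21 elsewhere, but ESR1 was at −6.26 against at most −6.37. The mean log2 difference of the 7 from their 12-array means was −0.77 on replicate 2 and −0.21 to 0.55 on the other arrays. Results are therefore given with and without this array.

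AQP3 had log2 levels of −2.76, 0.72 and −3.42 on CL-side summer arrays 1, 2 and 3, against −4.68, −4.13 and −4.47 on the CL-side autumn arrays. In the opposite horn the levels were −4.12, −3.39 and −4.06 in summer, against −4.0, −4.24 and −4.38 in autumn. Every CL-side summer array was brighter than every CL-side autumn array, with 0.71 log2 units between the nearest of them, and replicate 2 of summer stood far above all others. In the opposite horn the seasons overlapped.

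AQP5 had log2 levels of −1.10, 2.68 and −1.71 on the CL-side summer arrays, against −2.56, −2.51 and −3.04 on the CL-side autumn arrays. Its non-CL-side levels were −2.76, −1.58 and −2.42 in summer, against −2.18, −3.04 and −2.99 in autumn. The picture was that of AQP3: CL-side summer above CL-side autumn with a gap of 0.80, CL-side summer replicate 2 alone at the top, and overlapping seasons in the opposite horn.

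ATP1B1 had log2 levels of −0.93, −0.32 and −1.01 on the CL-side summer arrays, against −1.92, −2.08 and −1.31 on the CL-side autumn arrays. On the non-CL side they were −0.40, −1.05 and −0.41 in summer, against −2.01, −1.20 and −0.70 in autumn. CL-side summer lay above CL-side autumn with a gap of 0.30, non-CL-side summer reached as high as CL-side summer, and CL-side summer replicate 2 did not stand apart from the rest.

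**Figure D1:**
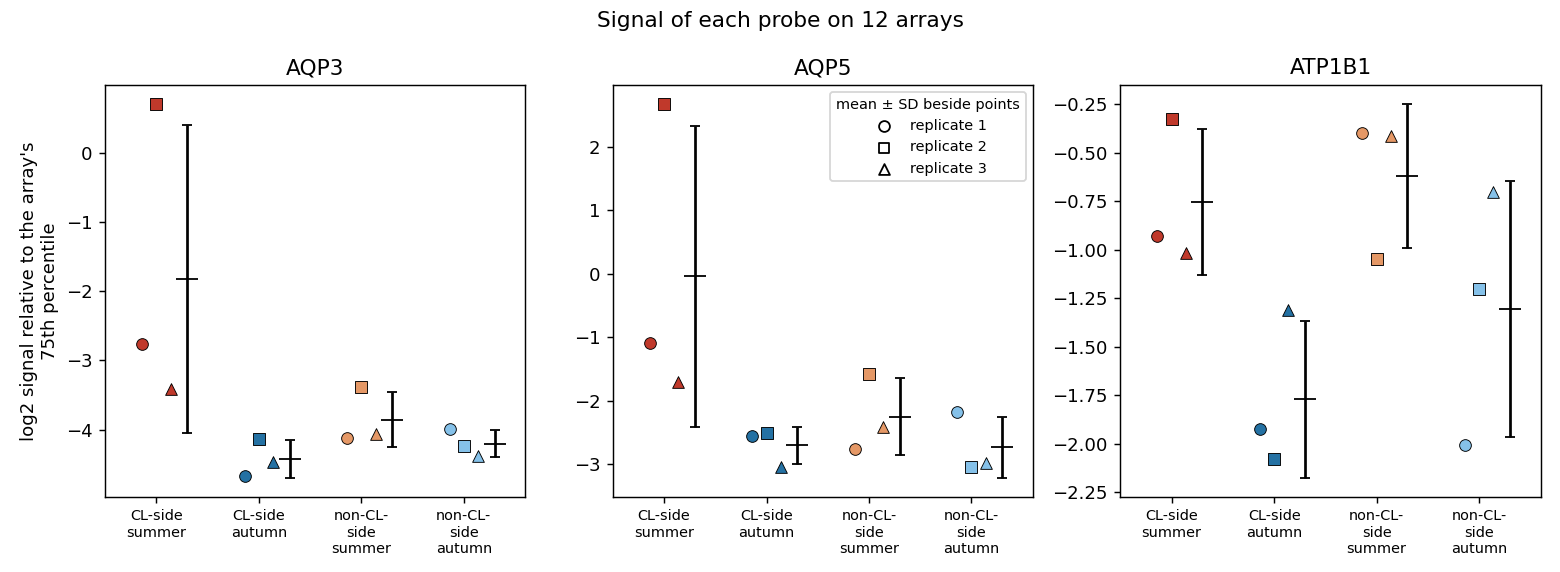
Log2 signal relative to the array's 75th percentile (vertical axis) of AQP3, AQP5 and ATP1B1 in the 4 groups (horizontal axis), with 1 point per array shaped by replicate number and the mean ± SD beside it. AQP3 and AQP5 have a lone high point, CL-side summer replicate 2 at 0.72 and 2.68, which the ATP1B1 values do not show.

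Group means followed from these values (log2, mean ± SD, n = 3). AQP3 averaged −1.82 ± 2.22 in CL-side summer, −3.86 ± 0.40 in non-CL-side summer, −4.21 ± 0.19 in non-CL-side autumn and −4.43 ± 0.28 in CL-side autumn. AQP5 averaged −0.044 ± 2.38 in CL-side summer, −2.25 ± 0.60 in non-CL-side summer, −2.70 ± 0.29 in CL-side autumn and −2.73 ± 0.48 in non-CL-side autumn. For ATP1B1 the order put non-CL-side summer first at −0.62 ± 0.37, then CL-side summer at −0.76 ± 0.38, non-CL-side autumn at −1.30 ± 0.66 and CL-side autumn at −1.77 ± 0.41. Neighbours in each of these orders overlapped array by array.

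On the CL side the summer minus autumn difference was 2.60 ± 0.82 log2 units for AQP3 (SE of limma's fit to all 12 arrays, 6.08-fold), 2.66 ± 0.91 for AQP5 (6.32-fold) and 1.01 ± 0.35 for ATP1B1 (2.02-fold). The median over all probes was 0.023. All 3 genes had summer and autumn arrays that did not overlap, higher in summer, as had 7.97% of all probes, but they were chosen on this contrast and the count supports nothing. Across the array, limma with Benjamini-Hochberg adjustment called 0% of 12381 probes at an adjusted p under 0.05, and 9.92% had an unadjusted p under 0.05.

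The size of the aquaporin differences rested on CL-side summer replicate 2. Without it the CL-side season difference was 1.34 ± 0.28 for AQP3 (2.52-fold), 1.30 ± 0.38 for AQP5 (2.46-fold) and 0.80 ± 0.38 for ATP1B1 (1.74-fold). The remaining CL-side summer arrays averaged −3.09 ± 0.46 for AQP3, −1.41 ± 0.43 for AQP5 and −0.97 ± 0.061 for ATP1B1 (log2, SD, n = 2). The seasons still did not overlap for any of the 3 genes, and 12.5% of all probes lay apart in the same direction once this array was left out.

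AQP3 on replicate 2 exceeded the highest of the other 11 arrays by 3.48 log2 units, and AQP5 by 3.78. Of 12272 probes measured on all arrays, 26 (0.212%) had a gap as large as that of AQP3 and 17 (0.139%) one as large as that of AQP5. ATP1B1 led the next array by 0.071, a lead that 27.1% of the probes reached, and 30.3% of the probes had their highest value on this array. The gap of the aquaporins was present before scaling. The processed signal of AQP3 was 3302 on replicate 2 and 170 to 651 on the other arrays, or 5.07-fold the highest of them. For AQP5 it was 12852, against 450 to 2064 elsewhere (6.23-fold). For ATP1B1 the unscaled signal on replicate 2 was 1602, inside the 942 to 3071 of the other arrays.

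In the horn opposite to the CL none of the 3 genes passed the test for season. The summer minus autumn difference was 0.35 ± 0.82 for AQP3, with an unadjusted p of 0.679 in limma, 0.48 ± 0.91 for AQP5 with one of 0.607, and 0.68 ± 0.35 for ATP1B1 with one of 0.0787, and the adjusted p was 1 for each. The fit called 0% of 12383 probes, and 1.12% had an unadjusted p under 0.05. The SE is shared over the 4 groups and includes the spread of CL-side summer replicate 2. Without that array the same differences had SEs of 0.25 for AQP3, 0.34 for AQP5 and 0.34 for ATP1B1. ATP1B1 was thus 1.61-fold higher in non-CL-side summer than in non-CL-side autumn on average, a difference that did not pass the threshold, with overlapping arrays. Of all probes, 2.62% did not overlap between the seasons of this horn with summer higher, and 3.45% with summer lower.

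Slide was tied to season. All 6 summer arrays and replicate 1 of both autumn groups lay on the first slide, the other 4 autumn arrays on the second, and each slide was a scan of its own. With slide as a block, ATP1B1 had a season difference of 1.44 ± 0.38 on the CL side and of 1.11 ± 0.38 on the non-CL side, the non-CL value with an unadjusted p of 0.0167 and an adjusted p of 0.835 in limma. In that fit 563 of 12383 probes had an unadjusted p under 0.05 for the non-CL-side season, against 139 without the block. Within the first slide the season differences of ATP1B1 were 1.17 ± 0.40 on the CL side and 1.39 ± 0.40 on the non-CL side, each against a single autumn array. The second slide held no summer array and gave no season value.

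With the slide block AQP3 gave 2.63 ± 1.06 on the CL side and 0.37 ± 1.06 on the non-CL side, and AQP5 gave 2.31 ± 1.15 and 0.13 ± 1.15. Within the first slide the values were 2.86 ± 1.49 and 0.14 ± 1.49 for AQP3, and 2.52 ± 1.62 and −0.076 ± 1.62 for AQP5. The direction of the AQP5 difference on the non-CL side therefore turned within the first slide. Its error there includes the spread of CL-side summer replicate 2 and cannot judge the turn.

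Between the horns, AQP3 and AQP5 had higher means in the CL horn than in the other in summer, and the difference depended on the same array. CL side minus non-CL side in summer was 2.04 ± 0.82 for AQP3 and 2.21 ± 0.91 for AQP5, and without CL-side summer replicate 2 it was 0.77 ± 0.28 and 0.85 ± 0.38. For ATP1B1 it was −0.14 ± 0.35, and −0.35 ± 0.38 without that array. The CL-side and non-CL-side summer arrays overlapped for all 3 genes, whether or not this array was counted. Of all probes, 1.88% did not overlap with the CL side higher and 1.65% with it lower. Between same-numbered summer arrays 1, 2 and 3, CL side minus non-CL side was 1.35, 4.11 and 0.64 for AQP3, 1.66, 4.26 and 0.71 for AQP5, and −0.53, 0.72 and −0.60 for ATP1B1. The CL side was higher in 3 of 3 such pairs for both aquaporins and in 1 of 3 for ATP1B1. The share of all probes with such a count was not computed, and the labels do not establish the pairs. The genes were also chosen on CL-side arrays, so these counts support nothing.

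In autumn the horns differed by −0.22 ± 0.82 for AQP3, 0.031 ± 0.91 for AQP5 and −0.47 ± 0.35 for ATP1B1, again with overlapping arrays, while 2.35% of all probes lay apart with the CL side higher and 5.55% with it lower. In 1 of 3 same-numbered autumn pairs the CL side was higher, for each gene, again with no share of all probes beside it. Within the second slide, which held 2 autumn arrays of each horn, the differences were 0.012 ± 0.19 for AQP3, 0.24 ± 0.24 for AQP5 and −0.74 ± 0.35 for ATP1B1. Within the first slide, with 1 autumn array of each horn, they were −0.68 ± 1.83, −0.39 ± 1.98 and 0.084 ± 0.49. The sign for each gene differed between the slides. The errors of the first slide rest on the spread of its summer arrays, CL-side summer replicate 2 among them, and cannot judge this shift. Over both slides without that array, the autumn differences had SEs of 0.25 for AQP3, 0.34 for AQP5 and 0.34 for ATP1B1.

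The season change of the CL side minus that of the other horn was 2.25 ± 1.16 for AQP3, 2.18 ± 1.28 for AQP5 and 0.33 ± 0.50 for ATP1B1. Without CL-side summer replicate 2 the values were 0.98 ± 0.38, 0.82 ± 0.52 and 0.11 ± 0.50. The aquaporin values thus shrank more than 1.5 times when this array was left out, and they carry no test because they contain the contrast on which the genes were chosen.

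**Figure D2:**
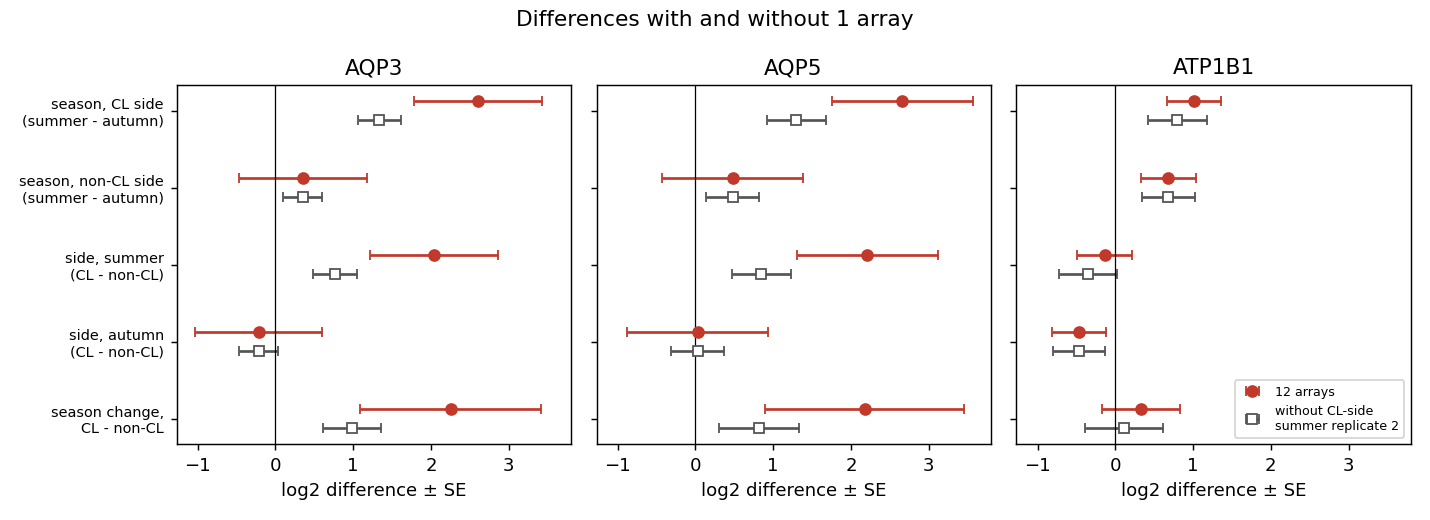
Log2 differences ± SE (horizontal axis) of AQP3, AQP5 and ATP1B1 in the 5 comparisons (vertical axis), with filled circles for 12 arrays and open squares without CL-side summer replicate 2. For AQP3 the CL-side season difference is 2.60 with and 1.34 without this array, and for ATP1B1 it is 1.01 and 0.80.

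AQP3 and AQP5 followed each other over the arrays and ATP1B1 followed neither. Across 12 arrays the log2 levels of AQP3 and AQP5 had a Pearson r of 0.988 and a Spearman rho of 0.895, and without CL-side summer replicate 2 an r of 0.920 and a rho of 0.864. AQP3 and ATP1B1 had an r of 0.455, and of 0.254 without it. AQP5 and ATP1B1 had an r of 0.376, and of 0.029 without it. These are descriptions over arrays that share groups, slides and scaling.

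Among 5757 genes compared by Pearson r over the 12 arrays, those most like AQP3 were IL13, a cytokine, at 0.989, AQP5 at 0.988, SLC26A4, an anion exchanger, at 0.976, B3GNT8, a glycosyltransferase, at 0.976, and SFTPD, a secreted lectin, at 0.972. IL13 was well above background on only 4 arrays and SLC26A4 on 5. Without CL-side summer replicate 2 the same correlations were 0.922, 0.920, 0.859, 0.887 and 0.768. The number of genes with an r over 0.9 with AQP3 was 94 on 12 arrays and 5 on the 11.

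For AQP5 the most alike were AQP3 at 0.988, IL13 at 0.985, B3GNT8 at 0.978, SLC26A4 at 0.966 and SERPINA5, a serine protease inhibitor, at 0.964. On 11 arrays they stood at 0.920, 0.902, 0.897, 0.800 and 0.815, and the count of genes over 0.9 was 81 on all arrays and 2 without replicate 2. Far fewer genes were thus alike by this measure once the array was left out. The limits stated for IL13 and SLC26A4 hold for AQP5 too.

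ATP1B1 had another set of neighbours, which kept their likeness when that array was left out. They were RIBC2 at 0.947, DNAAF1, an assembly factor of ciliary dynein arms, at 0.943, DYDC2 at 0.940, LRRC23, a component of the radial spokes of cilia, at 0.936, and DAW1, also known for dynein assembly, at 0.929. Without CL-side summer replicate 2 the values were 0.937, 0.935, 0.934, 0.929 and 0.919, and 28 genes in place of 24 had an r over 0.9.

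Some marker lists of cell types moved with some of the 3 genes. A marker score is the mean over the list of each gene's log2 difference from its 12-array mean. The score of squamous epithelium, a list led by keratins, was 0.95, 1.67 and 0.098 on CL-side summer arrays 1, 2 and 3, against −0.44, −0.75 and −0.37 in CL-side autumn. In the other horn it was −0.79, 0.35 and 0.11 in summer, against −0.30, −0.18 and −0.35 in autumn. Over 12 arrays its r was 0.890 with AQP3 and 0.888 with AQP5, and over the 11 it was 0.822 and 0.792. With ATP1B1 it was 0.477 over 12 arrays and 0.297 over the 11.

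The squamous score covered 6 tested genes of the 8 on the array. KRT10 was well above background on no array and DSC3 on 2. The summed level of the list (the sum of its signals in units of the 75th percentile) was 32.7 to 57.9 in CL-side summer, 32.0 to 45.1 in CL-side autumn, 25.6 to 43.7 in non-CL-side summer and 23.0 to 40.6 in non-CL-side autumn. On the CL side 5 of the 6 tested genes had a season difference above 0, as had 53.0% of all probes. Their median was 0.71, and 0.69 without replicate 2. The part of squamous epithelium in the aquaporin differences was not tested.

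The score of ciliated epithelium ran with ATP1B1. On CL-side arrays of summer it was 0.20, 1.27 and 0.14, against −1.27, −1.01 and 0.32 in CL-side autumn. In the opposite horn it was 0.30, 0.32 and 0.57 in summer, against −1.20, −0.53 and 0.87 in autumn. The autumn arrays lowest in ATP1B1, CL-side 1 and 2 and non-CL-side 1, were also the lowest in this score, and the r was 0.907 over 12 arrays and 0.891 over 11, with a rho of 0.769 and 0.70. The r of the ciliated score with AQP3 was 0.540 over 12 arrays and 0.268 over 11, and with AQP5 0.466 and 0.048.

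All 9 tested ciliated genes were above 0 for season on both sides, as were 53.0% of all probes on the CL side and 49.9% on the non-CL side. Their medians were 1.24 on the CL side (0.76 without replicate 2) and 0.69 on the non-CL side. None of the 9 passed the adjusted threshold. DNAH9, a dynein chain of motile cilia, was well above background on 5 arrays, and the summed level of the list was 8.73 to 14.6 in CL-side summer, 4.51 to 10.0 in CL-side autumn, 8.90 to 11.4 in non-CL-side summer and 3.98 to 13.6 in non-CL-side autumn. The part of ciliated cells in the ATP1B1 differences was not tested.

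**Figure D3:**
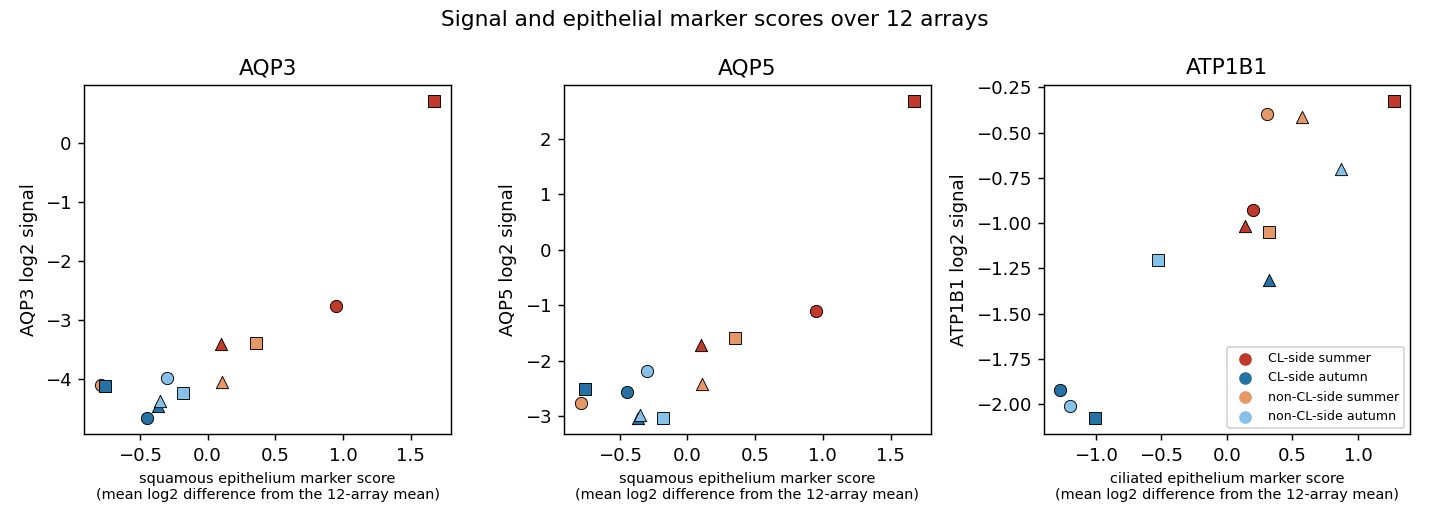
Log2 signal of AQP3 and AQP5 against the squamous epithelium score and of ATP1B1 against the ciliated epithelium score (vertical axes, signal relative to the array's 75th percentile; horizontal axes, mean log2 difference from the 12-array mean), with 1 point per array, coloured by group and shaped by replicate number as in the plot of levels. The topmost point for AQP3 and AQP5 is CL-side summer replicate 2, and for ATP1B1 the 3 arrays of lowest score are also its lowest, while the arrays of higher score scatter (rho = 0.769 over 12 arrays).

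General epithelial and stromal markers set CL-side summer replicate 2 apart. The epithelium score was 1.19 on it and between −0.33 and 0.16 on the other 11 arrays. Its r with AQP3 was 0.904 over 12 arrays and 0.455 over the 11. The epithelial list had a summed level of 51.4 to 95.1 in CL-side summer, 36.9 to 50.1 in CL-side autumn, 50.2 to 61.8 in non-CL-side summer and 47.7 to 67.0 in non-CL-side autumn. Of its genes, 13 of 15 were above 0 for the CL-side season difference (median 0.67, 0.46 without replicate 2), as were 53.0% of all probes.

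Stromal markers, mostly collagens and other matrix genes, ran the other way. The stroma score was −1.20 on replicate 2, and its summed level there was 59.7, against 119 to 186 on the other arrays. None of its 12 genes had a CL-side season difference above 0, against 53.0% of all probes, and the list's median was −1.05, or −0.67 without replicate 2. On the non-CL side the medians were −0.0098 for epithelium and −0.017 for stroma, and there the epithelial and stromal levels of the seasons overlapped. Whether the share of epithelium in a biopsy contributes to the aquaporin differences was not tested.

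Genes related by function were examined as 5 lists: other aquaporins, other pump subunits and their regulators, epithelial ion channels and exchangers, hormone and osmotic regulators, and tight junction genes. Of 91 genes in the lists, 54 were on the array and 46 were bright enough to be tested. No gene passed the adjusted threshold in any of the 5 comparisons. For the CL-side season difference 6 of the 46 (13.0%) had an unadjusted p under 0.05, all higher in summer, against 6.37% of all probes in that direction. They were AQP4, FXYD3, SCNN1A, SLC26A4, TJP1 and PARD6B, with adjusted p-values of 0.496 to 0.502. Without CL-side summer replicate 2 only SLC26A4 remained under it. SLC26A4 entered the fit only through CL-side summer, the group where it is high, and its CL-side autumn values all lay at the detection floor. Its p-value and its place among the 6 therefore support nothing.

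None of the other water channels passed the test. All 4 that could be tested had a CL-side season difference above 0, as had 53.0% of all probes. It was above 0 in 2 of the 4 without replicate 2 (3 with the authors' log2 values). Their median was 1.06, or 0.43 without replicate 2 and 0.55 with the authors' values. AQP4, a plain water channel best known from brain, averaged 2.59 ± 1.26 in CL-side summer and 0.65 ± 1.18 in CL-side autumn (log2, SD, n = 3), a difference of 1.94 ± 0.78 (limma adjusted p = 0.496), and 1.22 without replicate 2. AQP8, which also passes ammonia, had a CL-side difference of 1.79 ± 0.86 (0.92 without that array and 0.91 with the authors' values). On the non-CL side AQP4 had 0.75 ± 0.78 and AQP8 0.91 ± 0.86.

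AQP2, the water channel that vasopressin controls in the kidney, had 0.32 ± 0.34 on the CL side, −0.054 without replicate 2, and 0.22 ± 0.34 on the non-CL side. AQP1 had 0.0060 ± 0.59 on the CL side, −0.70 without replicate 2, and −0.26 ± 0.59 on the non-CL side. AQP7 was well above background on 2 arrays and MIP, the lens aquaporin, on 1, too few for a test. The median over the 4 tested aquaporins in the non-CL horn was 0.48, against −8.2e-05 over all probes.

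None of the 8 other sodium pump subunits and regulators tested passed the adjusted threshold for season in either horn. ATP1B2, another beta subunit, had a season difference of −0.63 ± 0.61 on the CL side by its brighter probe, 0.29 without replicate 2, where its level was −1.15 against 1.20 to 2.07 elsewhere. A second ATP1B2 probe had 0.15 ± 0.54.

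ATP1B3, a further beta subunit, had 0.34 ± 0.26 on the CL side, −0.019 without replicate 2, and 0.079 ± 0.26 on the non-CL side. FXYD3, a small protein that modulates the pump, had 1.13 ± 0.49 on the CL side (adjusted p = 0.502), 0.49 without replicate 2, and 0.37 ± 0.49 in the other horn. With the authors' log2 values FXYD3 had 0.059 on the CL side and 0.0062 on the non-CL side. FXYD2 was well above background on 2 arrays. Over the 8 tested pump genes the CL-side median was 0.27, or −0.022 without replicate 2 and 0.096 with the authors' values, and the non-CL-side median 0.040.

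Ion channels and exchangers held genes with the same lone high array. SCNN1A, the alpha subunit of the epithelial sodium channel, averaged −1.32 ± 1.92 in CL-side summer and −3.04 ± 0.13 in CL-side autumn (log2, SD, n = 3), a difference of 1.72 ± 0.74, and 0.62 without that array, on which its level was 0.89 against at most −2.33 elsewhere. On the non-CL side its season difference was −0.20 ± 0.74. SLC26A4, the anion exchanger pendrin, was well above background on every CL-side summer array and on no CL-side autumn array. With its autumn signals at the detection floor of −7.28, the fitted summer mean was 4.34-fold higher (limma adjusted p = 0.498), and 1.63-fold higher without replicate 2. The size of this difference depends on how low signals are treated, for with the authors' log2 values it was 0.52 log2 units.

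CFTR, the chloride channel of secretory epithelia, had 1.11 ± 0.68 on the CL side and 0.21 ± 0.68 on the non-CL side, and 1.32 on the CL side without replicate 2. SLC4A4, a sodium bicarbonate cotransporter, had 0.95 ± 0.55 and 0.17 ± 0.55, with a CL-side value of 0.18 without it. A second SLC4A4 probe was well above background on 2 arrays and was not tested. The list's median was 0.37 on the CL side, 0.23 without replicate 2, 0.19 with the authors' values, and −0.18 on the non-CL side over 11 tested genes. CLCN2, SLC9A3, KCNN4, KCNE2 and KCNE3 were on the array and too dim for a test.

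Regulators of salt and water transport gave small values. HSD11B2, which inactivates cortisol and so shields the mineralocorticoid receptor, had −0.54 ± 0.76 on the CL side and 0.60 without replicate 2, where its level was −2.07 against 0.18 to 1.63 elsewhere. AVPR2, the vasopressin receptor that acts on AQP2 in the kidney, had 0.52 ± 0.28 on the CL side (0.16 without that array). STK39, a kinase of chloride cotransporters, had 0.63 ± 0.43, and 0.0017 with the authors' values. The median over 10 genes was 0.18 on the CL side, −0.0049 with the authors' values, and 0.068 on the non-CL side.

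Tight junction genes, which seal the path between epithelial cells, had a CL-side median of 0.46 over 13 genes, 0.37 without replicate 2, and 0.049 on the non-CL side. PARD6B, a polarity protein, had 0.89 ± 0.31 on the CL side (adjusted p = 0.496), 0.65 without replicate 2, and −0.081 ± 0.31 on the non-CL side. CLDN10, a claudin that forms ion pores, had 0.93 ± 0.69 on the CL side (0.24 without replicate 2) and CLDN4 had 0.76 ± 0.37 (0.52 without it). TJP1, the scaffold protein ZO-1, had 0.38 ± 0.17 (adjusted p = 0.502).

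In the other comparisons the related genes gave few low p-values. In the non-CL-side season test 0 of 46 had an unadjusted p under 0.05, against 1.12% of all probes. Between the horns in summer 3 did, all higher on the CL side (6.52%, against 0.977% of all probes in that direction): SCNN1A at 1.67 ± 0.74, SLC4A4 at 1.74 ± 0.55 and SLC26A4 at a fitted 2.07 ± 0.89, with an adjusted p of 0.984 for each. Without replicate 2 the values were 0.56 for SCNN1A, 0.97 for SLC4A4 and 0.66 for SLC26A4, and only SLC4A4 and SLC26A4 still had such a p, with an adjusted p of 1 for each. SLC26A4 supports nothing here either, since it passed the filter only through CL-side summer, the group where it is high.

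Between the horns in autumn 0 of 46 had an unadjusted p under 0.05, against 1.86% of all probes. The difference of the season changes gave 1, PARD6B at 0.98 ± 0.44 (adjusted p = 0.999), against 1.26% of all probes in its direction. Without CL-side summer replicate 2 PARD6B had 0.73 and no such p. SLC26A4 then had one, at a fitted 0.66, which supports nothing for the reason given above. For the members themselves no such test is given, and their values in these comparisons stand above.

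**Figure D4:**
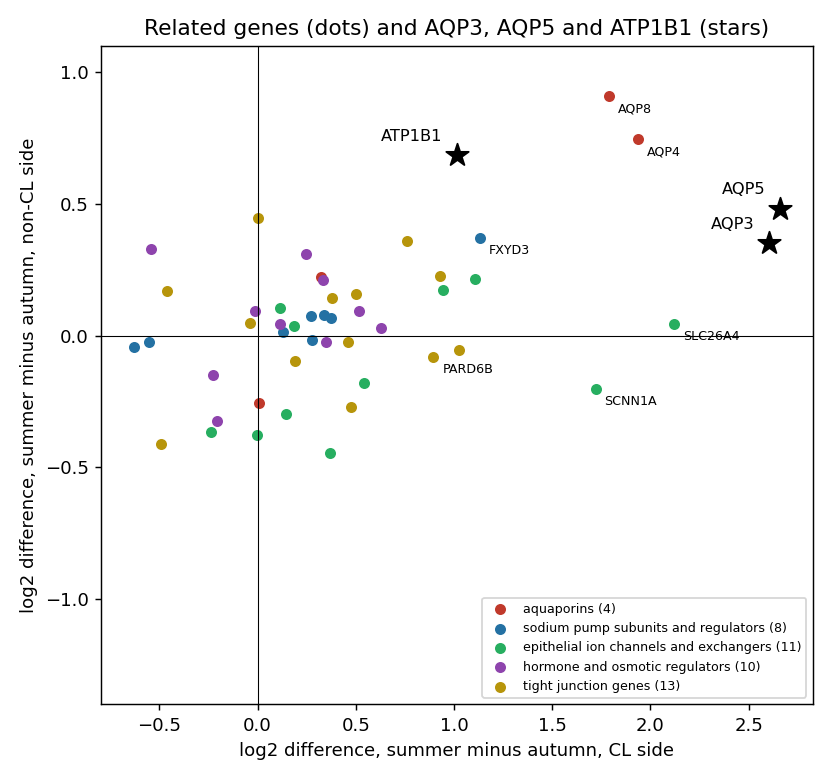
Log2 difference summer minus autumn on the CL side (horizontal axis) against the same on the non-CL side (vertical axis) for 46 related genes, coloured by list, and for AQP3, AQP5 and ATP1B1 as stars. AQP3 and AQP5 lie farthest to the right at 2.60 and 2.66, with SLC26A4, AQP4, AQP8 and SCNN1A next, and ATP1B1 lies at 1.01 and 0.68. The stars were chosen on the horizontal contrast, so their place along it supports nothing. The place of SLC26A4 rests on CL-side autumn values at the detection floor.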

How the data were processed

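Arrays were 1-colour (Cy3). Per the file headers, Feature Extraction 9.5.1.1 (9.5 per the submitters' processing notes) gave each spot a background-subtracted intensity, the deposited processed signal. The authors also deposited log2 values, near 0 at the 75th percentile (medians −2.79 to −2.61), whose scale and centring are unstated and which served as an alternative. Symbols in brackets or RefSeq names (ARS-UCD2.0) named 7088 of 15208 probes, with the brightest probe standing for the 233 genes with several.

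Signals were divided by the array's 75th percentile, logged and floored at −7.28 (log2), the highest over arrays of the dimmest signal still well above background. The floor was added after seeing the data, since 802 to 2092 signals per array were at or below 0. Outlier-flagged values (466) were set to missing. A probe entered the fit if any group had it well above background in all its arrays (12404 did, and 2804 were left out). limma 3.58.1 in R 4.3.3 fitted 4 group means to 12 arrays (8 residual degrees of freedom), with Benjamini-Hochberg adjustment over all kept probes at 0.05, two-sided. It was also run on simulated data with added changes of 4 log2 units. These exceed every difference tested for the members, so that run cannot show what the test finds at the sizes seen. The number of arrays limits the precision.

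Members and lists were chosen with earlier results of these data known. Named were the members, up to 3 genes a list with the largest season change on either side among those well above background on all arrays, and the 5 genes most alike, and some genes under this rule are not reported here. Genes with a low unadjusted p, genes too dim, AQP1, ATP1B3, the marker genes and the genes most alike on 11 arrays were added after their values were seen. Same-numbered samples deviated together in every pair (r of 0.110 to 0.497), between horns and between seasons. The labels do not say that a number marks an animal, so the main fit takes no pairing. A fit with the replicate number as a block is given as an alternative. Alternatives covered background correction, scaling, floor, filter, outlier flags, slide, replicate block, groups in the fit and each array left out.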

Additional observations from a re-analysis of the deposited data

How the results depend on the processing

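Leaving out each array in turn moved the season difference on the CL side between 1.34 and 3.40 for AQP3, 1.30 and 3.49 for AQP5, and 0.80 and 1.24 for ATP1B1. On the non-CL side it ran from 0.12 to 0.48, 0.15 to 0.76 and 0.33 to 0.99 for the same genes, and between the horns in summer from 0.77 to 2.83, 0.85 to 3.04 and −0.35 to −0.0074. In autumn the horns differed by −0.37 to −0.093, −0.12 to 0.31 and −0.82 to −0.17, and the season changes of the horns differed by 0.98 to 3.05, 0.82 to 3.01 and 0.029 to 0.68. The lowest values of AQP3 and AQP5 in CL-side season, summer side difference and difference between season changes came from leaving out CL-side summer replicate 2. With arrays of the first slide alone, AQP5 on the non-CL side turned to −0.076, the autumn side differences moved to −0.68 for AQP3, −0.39 for AQP5 and 0.084 for ATP1B1, and the ATP1B1 difference between season changes to −0.22. With slide as a block the CL-side change of ATP1B1 was 1.44. With the authors' log2 values the AQP3 side difference in autumn was 0.094. The cause of these shifts was not tested. In the other 354 comparisons of a result with an alternative, member differences moved by less than the spread between replicates or kept their direction and side of the threshold, the related genes past the threshold stayed at 0, and the median r of the 5 most alike genes fell by less than 0.1 without replicate 2. For the CL-side season that spread was an SD of 1.58 for AQP3 and 1.69 for AQP5, and it includes CL-side summer replicate 2. The falls from 2.60 to 1.34 and from 2.66 to 1.30 without this array therefore lay inside it. This measure cannot judge how far the aquaporin differences depend on that array. The replicate block changed no call and left the members' differences as they were (0.68 for the non-CL-side season of ATP1B1, with an unadjusted p of 0.0765 and an adjusted p of 1 in limma), while probes with an unadjusted p under 0.05 went to 1602 with it and 1228 without it for the CL-side season, to 244 and 139 for the non-CL-side season, 421 and 175 between horns in summer, 528 and 230 in autumn, and 548 and 233 for the difference of season changes. Adjusted p-values of the non-CL-side season test ran from 0.835 to 1 over 24 settings for ATP1B1, and were about 1 throughout for AQP3 and AQP5. The lone array of an autumn arm on the first slide was assumed to vary like the other groups.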

Other observations

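Markers of other cell types gave smaller differences. For the CL-side season, 8 endothelial genes had a median log2 difference of 0.079, or −0.17 without CL-side summer replicate 2, and 8 leukocyte genes had 0.24, or 0.13 without it. The leukocyte score was 0.14 to 0.48 on the CL-side summer arrays, −0.082 to 0.15 in CL-side autumn, −0.21 to −0.055 in non-CL-side summer and −0.34 to −0.10 in non-CL-side autumn. Of 4 red blood cell genes on the array only ALAS2, an enzyme of heme synthesis, could be tested, with 0.31. The 7 endometrial genes had a median of −0.22 on the CL side, −0.015 without that array, and none of these lists held a gene past the adjusted threshold in limma.

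On the 11 arrays without CL-side summer replicate 2 the gene most like AQP3 was MX2, an interferon-induced GTPase, at an r of 0.936, followed by LAP, a beta-defensin of bovine epithelia, at 0.928. For AQP5 the list led with AQP3, IL13 and CYP4B1, a cytochrome P450, at 0.920, 0.902 and 0.90. IL13, near the detection floor as stated above, supports nothing here. For ATP1B1 it led with NMI, an interferon-induced protein, at 0.957. These correlations are descriptions over arrays that share groups and slides.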
